A study of Homo sapiens with 4 samples.

Results

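The genes described here encode the subunits of the SWI/SNF chromatin remodelers, and they were chosen by name, as a list of 31 genes out of the 20033 protein-coding genes of the GENCODE 44 annotation (hg38). The question asked of them was whether the promoters of these genes are themselves sites of SS18-SSX and WDR5 binding, and which of those sites are called after WDR5 is degraded. The data were 4 CUT&RUN peak lists from HSSY II cells, an established human synovial sarcoma line that carries the SS18-SSX1 fusion. In CUT&RUN, micrococcal nuclease tethered to an antibody cuts around the bound protein, and the released fragments are sequenced. An antibody to the fusion (SS18-SSX) or to WDR5 was used after 4 days with DMSO, the solvent control, or with 2.5 µM MS67, a PROTAC (a bifunctional small molecule that brings WDR5 to an E3 ubiquitin ligase for degradation). The groups were thus SS18-SSX DMSO, SS18-SSX MS67, WDR5 DMSO, and WDR5 MS67, all in cells of the same line, and each was 1 library, so no difference had a replicate error and no p-value was computed. Mouse NIH-3T3 cells were added to every sample as a spike-in, but the values of the peak lists are not scaled by it.

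SWI/SNF complexes use the energy of ATP to slide or evict nucleosomes and thereby open promoters and enhancers. They are assembled in 3 forms. Canonical BAF (cBAF) is defined by ARID1A or ARID1B and a DPF protein. PBAF is defined by ARID2, PBRM1, BRD7, and PHF10, and noncanonical BAF (ncBAF) by BRD9 with BICRA or BICRAL. In synovial sarcoma, a translocation joins SS18, a subunit of cBAF and ncBAF, to an SSX gene, so the fusion protein is built into the remodeler and is expressed from the SS18 promoter. WDR5 is a WD40-repeat scaffold of the KMT2 methyltransferases, which place H3K4 methylation at active promoters.

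A promoter was the stretch from 1000 bp upstream to 100 bp downstream of an annotated transcription start site (TSS), and a peak was placed there by its centre. A wider window took every peak with its centre within 2 kb of a TSS. Each peak is given with its summit fragments, the number of overlapping fragments at its highest point, with the exact Poisson 95% interval, which covers counting error only. Its fold is the summit over the background near the peak in the same library, and its −log10 q is the value that MACS2, the peak caller, gave after correction for multiple testing.

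With DMSO, SS18-SSX had a promoter peak at 7 of the 31 genes (22.6%), against 13.4% of all protein-coding genes. These were SMARCA2, SMARCA4, ACTL6A, ACTL6B, ACTB, BCL7B, and SMARCE1. WDR5 had a promoter peak with DMSO at 17 of 31 (54.8%), against 43% of all genes. With MS67, SS18-SSX had a promoter peak at 0 of 31, against 0.719% of all genes, and WDR5 at 7 of 31 (22.6%), against 27.7%. Within 2 kb of a TSS, SS18-SSX had a peak at 9 members with DMSO (21.8% of all genes) and at 1 with MS67 (1.75%). WDR5 had a peak there at 27 members with DMSO (62.7%) and at 15 with MS67 (41.8%). DPF2 and PBRM1 had no peak in any list within 2 kb of a TSS or in the gene body. The members have more annotated start sites than other genes, with a median of 13 (2 to 66) against 5, and their canonical promoters were richer in G and C (median 60.4% against 54.6%). Their shares were not adjusted for this. When only the canonical transcript of each gene was used, SS18-SSX DMSO promoter peaks were left at 2 members, SMARCA4 and SMARCE1 (8.84% of all genes), so the other 5 rest on alternative start sites.

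**Figure D1:**
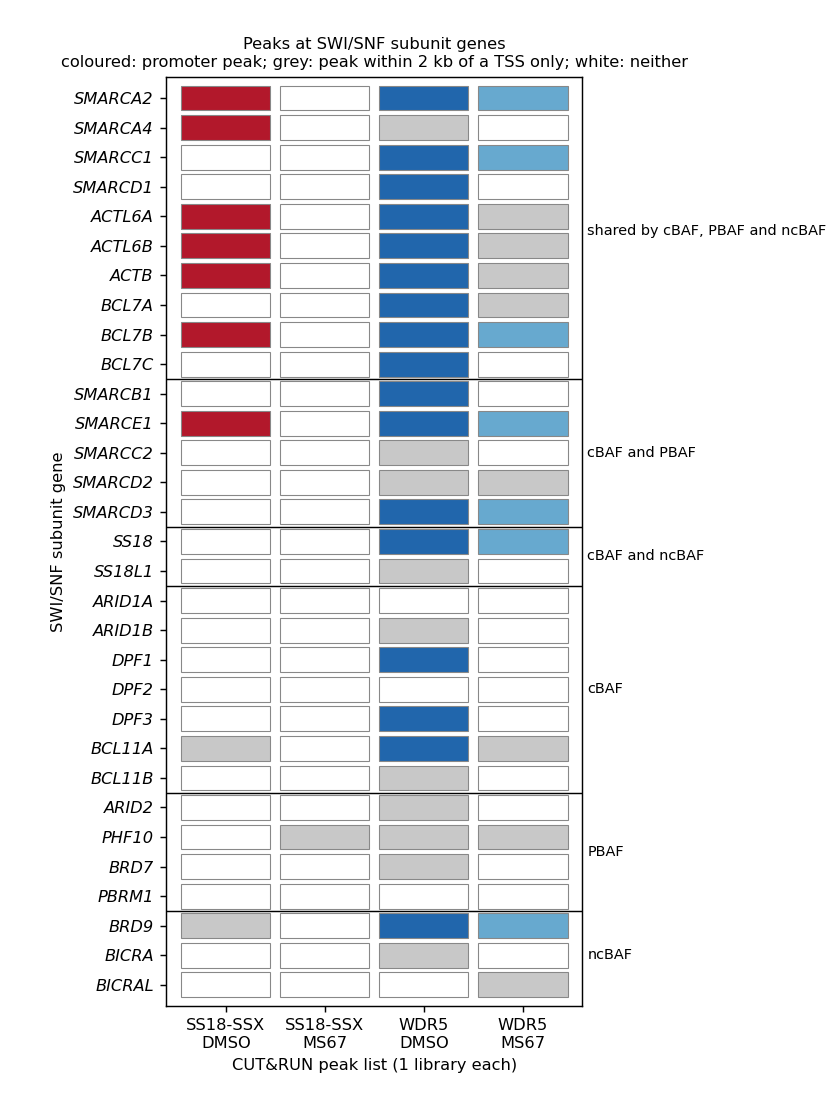
Calls for each of the 31 SWI/SNF subunit genes (rows, by subcomplex) in the 4 peak lists (columns, 1 library each). A coloured box is a promoter peak, a grey box a peak within 2 kb of a TSS only, and a white box neither. The SS18-SSX DMSO column has 7 coloured boxes, of which 6 are in the block of subunits shared by all 3 complexes, and the SS18-SSX MS67 column has none.

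The sequences shown first are those of promoter sites outside all exons, where the peaks named above lie or next to which they lie. ACTL6B, the neuronal actin-related subunit, had the promoter peak of highest −log10 q for SS18-SSX, and the 250 bases before its RefSeq start (GRCh38.p14, minus strand) are at chr7:100656449-100656698. The SMARCA4 sequence is the SS18-SSX DMSO peak upstream of the gene (chr19:10960515-10960719), and the SMARCA2 sequence is a WDR5 DMSO peak upstream of the canonical start that overlapped a WDR5 MS67 peak (chr9:2014903-2015067). The BCL7B sequence is a WDR5 DMSO peak (chr7:73557793-73557995) that also overlapped a WDR5 MS67 peak. The SMARCB1 (chr22:23786710-23786897) and DPF3 (chr14:72894138-72894364) sequences are WDR5 DMSO peaks with no WDR5 MS67 peak. The peaks were chosen after their values were seen and are written on the plus strand of hg38. Capitals mark the letters of 4 motifs on either strand.
ACTL6B: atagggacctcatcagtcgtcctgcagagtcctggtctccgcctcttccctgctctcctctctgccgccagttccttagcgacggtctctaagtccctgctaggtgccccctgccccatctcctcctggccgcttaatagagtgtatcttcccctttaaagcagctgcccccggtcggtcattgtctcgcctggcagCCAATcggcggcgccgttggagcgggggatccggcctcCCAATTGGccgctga
SMARCA4: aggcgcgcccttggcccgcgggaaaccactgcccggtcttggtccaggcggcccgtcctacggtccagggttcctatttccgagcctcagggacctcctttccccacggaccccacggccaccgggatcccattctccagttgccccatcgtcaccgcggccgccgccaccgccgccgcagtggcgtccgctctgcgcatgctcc
SMARCA2: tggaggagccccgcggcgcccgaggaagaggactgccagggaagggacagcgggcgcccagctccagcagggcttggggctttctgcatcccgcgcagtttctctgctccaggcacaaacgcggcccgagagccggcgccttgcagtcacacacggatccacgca
BCL7B: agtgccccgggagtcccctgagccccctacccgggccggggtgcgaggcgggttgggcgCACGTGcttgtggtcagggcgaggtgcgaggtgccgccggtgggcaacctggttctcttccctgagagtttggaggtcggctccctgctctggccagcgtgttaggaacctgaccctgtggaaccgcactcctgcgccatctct
SMARCB1: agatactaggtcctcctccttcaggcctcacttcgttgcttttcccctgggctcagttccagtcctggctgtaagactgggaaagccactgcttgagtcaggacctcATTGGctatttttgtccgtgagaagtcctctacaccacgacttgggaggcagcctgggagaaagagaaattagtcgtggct
DPF3: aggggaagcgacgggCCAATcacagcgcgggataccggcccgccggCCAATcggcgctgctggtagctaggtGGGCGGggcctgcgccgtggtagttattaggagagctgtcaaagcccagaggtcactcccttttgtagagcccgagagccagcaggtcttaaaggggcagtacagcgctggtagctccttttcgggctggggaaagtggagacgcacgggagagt

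The motifs searched, each on both strands, were CCAAT, the GC box with the letters GGGCGG, the E-box with the letters CACGTG, and CCGGAAG, the core of an ETS site. The ACTL6B promoter held CCAAT on both strands near the start, where the copies overlapped in a palindrome, and no GC box. The SMARCA4 and SMARCA2 peaks held none of the 4. The BCL7B peak held 1 E-box, the SMARCB1 peak 1 CCAAT box, and the DPF3 peak 2 CCAAT boxes and 1 GC box. Of all 35116 RefSeq promoters of 250 bases, 32.0% held CCAAT, 42.6% the GC box, 6.34% the E-box, and 8.52% the ETS core. The RefSeq table matched 26 of the 31 members, with 47 start sites among them. In these 47 the shares were 29.8% for CCAAT, 63.8% for the GC box, 6.38% for the E-box, and 4.26% for the ETS core. The table held no promoter of SMARCC1, ACTL6A, ACTB, SMARCC2, or ARID2. A match of letters is a description of the window and not a bound site.

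Among the 10 subunits shared by cBAF, PBAF, and ncBAF, 6 had an SS18-SSX promoter peak with DMSO and 9 had a WDR5 promoter peak, against 13.4% and 43% of all genes. With canonical starts only, SMARCA4 was the only shared subunit left with an SS18-SSX promoter peak, against 8.84% of all genes. The ATPases were SMARCA4 and SMARCA2, the motors of the complex. At SMARCA4, the SS18-SSX DMSO peak had 7 summit fragments (2.81 to 14.4), a fold of 4.13, and a −log10 q of 2.12, and its centre lay 413 bp upstream of the canonical TSS. It was a weak call, since 11.1% of the SS18-SSX DMSO list had a lower −log10 q. The WDR5 DMSO peak nearest to it lay 1407 bp away, inside the gene, with a −log10 q of 1.95, so SMARCA4 was the member with an SS18-SSX promoter peak and no WDR5 promoter peak. SMARCA4 had no peak with MS67 in either list within 2 kb.

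At SMARCA2, SS18-SSX DMSO had 2 peaks of 9 summit fragments each (4.12 to 17.1) downstream of the canonical TSS, with −log10 q of 2.80 and 2.85. WDR5 DMSO had a peak 362 bp upstream of it with 22 summit fragments (13.8 to 33.3) and a −log10 q of 5.50. The upstream site was called again with MS67 at 21 summit fragments (13.0 to 32.1) and a −log10 q of 6.36. With MS67, WDR5 had a further peak over the SS18-SSX site downstream of the start (chr9:2015955-2016834), with 18 summit fragments and a −log10 q of 4.37, where the WDR5 DMSO list had none. SMARCA2 also carried WDR5 peaks at internal start sites, 142 and 145 kb downstream of the canonical TSS, in both treatments. The higher of them with DMSO had 29 summit fragments (19.4 to 41.6) and a −log10 q of 10.9.

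The actin and actin-related subunits ACTB, ACTL6A, and ACTL6B, which sit on the ATPase, all had promoter peaks of both targets with DMSO. ACTL6B had the highest SS18-SSX call of all member promoters, 15 summit fragments (8.40 to 24.7), a fold of 5.75, and a −log10 q of 6.02. That peak (chr7:100655932-100656353) lay 306 bp downstream of the canonical TSS, and a second peak with 11 fragments and a −log10 q of 3.10 lay 931 bp downstream. The WDR5 promoter peak of ACTL6B lay elsewhere, at an internal start site 8.60 kb into the gene, with 8 summit fragments (3.45 to 15.8), so SS18-SSX and WDR5 were not called at the same start site of this gene. A WDR5 MS67 peak of 6 fragments (2.2 to 13.1, −log10 q 3.79) lay 50 bp from that site (chr7:100647473-100647711), with its centre 146 bp downstream of a start and thus just outside the promoter window. ACTL6A, the widely expressed paralog, had an SS18-SSX peak 111 bp downstream of its canonical TSS with 7 fragments (2.81 to 14.4) and a −log10 q of 3.02, and a WDR5 peak 233 bp upstream with 13 fragments (6.92 to 22.2) and a −log10 q of 3.66. With MS67, the WDR5 peak of ACTL6A was on the downstream side, at 524 bp, with 13 fragments, a fold of 7.34, and a −log10 q of 7.12. The site upstream was not called.

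ACTB encodes beta-actin. Its promoter peaks of SS18-SSX (11 fragments, −log10 q 3.12) and WDR5 (35 fragments, 24.4 to 48.7, −log10 q 13.8) overlapped each other at an alternative start 32.2 and 32.3 kb upstream of the canonical one. The WDR5 peak there was the highest of all WDR5 DMSO member promoters, above 98.0% of its list. Near the canonical ACTB start, WDR5 DMSO had a peak of 1118 bp centred 1099 bp upstream, with 25 fragments (16.2 to 36.9) and a −log10 q of 9.70. WDR5 MS67 had calls over both sites with fewer fragments, 11 and 10, in a library of lower coverage. Divided by genome-wide coverage, the alternative site was 95.2-fold with DMSO and 65.3-fold with MS67. The site near the canonical start was 68.0-fold and 59.4-fold, and the intervals overlapped at both sites. The centres of the MS67 peaks fell outside the promoter window.

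BCL7A, BCL7B, and BCL7C are small paralogous subunits. BCL7B had an SS18-SSX DMSO peak with 11 fragments (5.49 to 19.7), a fold of 5.45, and a −log10 q of 4.50. It overlapped a WDR5 DMSO peak of 15 fragments (8.40 to 24.7), and WDR5 peaks were called on both sides of the start with DMSO and with MS67. BCL7A had a WDR5 promoter peak with 14 fragments 570 bp upstream of its canonical start with DMSO and none with MS67. Further into BCL7A, an SS18-SSX DMSO peak of 10 fragments overlapped WDR5 peaks of both treatments 2309 bp downstream of the canonical start. BCL7C had 2 WDR5 DMSO promoter peaks, the higher with 27 fragments (17.8 to 39.3) and a −log10 q of 9.32, and neither overlapped a WDR5 MS67 peak. The SS18-SSX DMSO peak nearest to them was 53406 bp away.

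The remaining shared subunits had no SS18-SSX peak. SMARCC1, the scaffold BAF155, had a WDR5 promoter peak with DMSO (10 fragments, 4.80 to 18.4, −log10 q 2.98) and with MS67 (7 fragments, 2.81 to 14.4, −log10 q 2.65) at the same place. SMARCD1, the subunit BAF60A, had WDR5 DMSO peaks on both sides of its start, of 14 and 15 fragments, with −log10 q of 7.09 and 7.97. The nearest WDR5 MS67 peak was 26241 bp away.

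Among the 5 subunits of cBAF and PBAF, 1 had an SS18-SSX promoter peak with DMSO, SMARCE1, and 3 had a WDR5 promoter peak, SMARCE1, SMARCB1, and SMARCD3, against the same 13.4% and 43% of all genes. SMARCE1 encodes the DNA-binding subunit BAF57. Its SS18-SSX DMSO peak (chr17:40648357-40648495) had 6 fragments (2.2 to 13.1), the fewest of any member promoter peak in that list, and a −log10 q of 2.27. It lay between the WDR5 peaks of the 2 treatments. The WDR5 DMSO peak (chr17:40648603-40648992) was 108 bp away with 12 fragments (6.20 to 21.0), a fold of 5.42, and a −log10 q of 5.21. The WDR5 MS67 peak (chr17:40648075-40648333) was 24 bp away on the side of the canonical start, with 15 fragments (8.40 to 24.7), a fold of 10.8, and a −log10 q of 12.6. This was the highest WDR5 MS67 call of all member promoters, above 99.7% of its list, and it did not overlap the DMSO peak, which was 270 bp away. The intervals of the fragments overlapped.

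SMARCB1 encodes BAF47, a subunit that the fusion is known to displace from the complex. It had WDR5 DMSO peaks on both sides of its start, of 14 (7.65 to 23.5) and 11 fragments, with −log10 q of 7.16 and 4.56, and the nearest WDR5 MS67 peak was 13674 bp from the first. SMARCC2, the scaffold BAF170, and SMARCD2, the subunit BAF60B, had WDR5 DMSO peaks within 2 kb, downstream of their starts, with −log10 q of 9.08 and 10.3. SMARCD2 had WDR5 MS67 peaks at the same 2 sites, the higher with 17 fragments (9.90 to 27.2) and a −log10 q of 9.44, whereas the WDR5 MS67 peak nearest to that of SMARCC2 was 30078 bp away. SMARCD3, the muscle and heart variant BAF60C, had 6 WDR5 DMSO peaks within 2 kb of a TSS. The promoter call near its canonical start had 36 fragments (25.2 to 49.8) over a background of 12.7, hence a fold of only 2.71. At the same place, WDR5 MS67 had 26 fragments (17.0 to 38.1) over a background of 5.07, a fold of 4.45. The background at this site was thus high in both libraries. A second promoter site of SMARCD3, at a start upstream of the canonical one, had a lower background. There WDR5 DMSO had a peak (chr7:151277194-151277381) of 14 fragments (7.65 to 23.5) over a background of 2.39, with a −log10 q of 4.34. The WDR5 MS67 peak over it (chr7:151276983-151277413) had 11 fragments (5.49 to 19.7) over a background of 0.845, with a −log10 q of 5.55.

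SS18 supplies the 5′ part of the fusion. WDR5 DMSO had 2 promoter peaks there, of 22 fragments (13.8 to 33.3, −log10 q 10.3) on the upstream side and 14 fragments (7.65 to 23.5, −log10 q 4.08) on the downstream side of the canonical TSS. WDR5 MS67 had 12 (6.20 to 21.0, −log10 q 3.92) and 8 fragments (3.45 to 15.8, −log10 q 1.48) at the same sites. The fusion itself had no peak at SS18, and the nearest SS18-SSX DMSO peak was 135750 bp from these sites. SS18L1, the neuronal paralog CREST, had WDR5 DMSO peaks 1791 bp upstream and 1023 bp downstream of its start, of 17 and 14 fragments, and none with MS67.

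The 7 subunits found in cBAF only had no SS18-SSX promoter peak, against 13.4% of all genes with DMSO and 0.719% with MS67. A list of 7 genes is too short to read this as a trait of cBAF. WDR5 had promoter peaks with DMSO at 3 of the 7, DPF1, DPF3, and BCL11A, against 43% of all genes. With MS67, WDR5 had such a peak at none of them, against 27.7%. DPF1, a neuronal variant, had a WDR5 DMSO peak of 22 fragments (13.8 to 33.3, −log10 q 7.12), and DPF3, a muscle and neuronal variant, had peaks of 15 and 13 fragments (−log10 q 4.78 and 3.53). BCL11A, a zinc finger transcription factor that binds the complex, had 3 WDR5 DMSO promoter peaks upstream of its start, of 22, 29, and 22 fragments, the highest with a −log10 q of 8.08. An SS18-SSX DMSO peak of 16 fragments (9.15 to 26.0, −log10 q 3.03) began 32 bp from the outermost of them. Its paralog BCL11B had a WDR5 DMSO peak of 17 fragments 1093 bp upstream of its start. ARID1B, an ARID subunit that binds DNA, had a WDR5 DMSO peak of 11 fragments within 2 kb (−log10 q 2.53). Its paralog ARID1A had none there and 1 peak of 12 fragments in the gene body, and DPF2, the widely expressed DPF gene, had none.

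None of the 4 genes found in PBAF only had a promoter peak in any list, against 13.4% (SS18-SSX DMSO) and 43% (WDR5 DMSO) of all genes. A list of 4 genes is too short to read this as a trait of PBAF. ARID2, PHF10, and BRD7 had WDR5 DMSO peaks within 2 kb, against 62.7% of all genes, of 18, 13, and 7 fragments at the highest site of each. PHF10, a PHD finger subunit, was the member with an SS18-SSX peak within 2 kb after MS67. That peak (chr6:169722094-169722293) lay in an intron 1738 bp downstream of an annotated start and 2307 bp downstream of the canonical one, with 10 fragments (4.80 to 18.4), a fold of 4.88, and a −log10 q of 2.68. The nearest SS18-SSX DMSO peak was 19582 bp away. Of the 3 ncBAF subunit genes, 1 had WDR5 promoter peaks with DMSO and with MS67, against 43% and 27.7% of all genes. It was BRD9, the bromodomain protein that defines this complex. Its peaks had 18 fragments with DMSO (10.7 to 28.4, −log10 q 6.79) and 12 with MS67 (6.20 to 21.0, −log10 q 4.43). The strongest SS18-SSX call within 2 kb of any member was here, 1272 bp upstream of the canonical BRD9 start (chr5:893906-894241), with 17 fragments (9.90 to 27.2), a fold of 5.96, and a −log10 q of 6.94. BRD9 shares its promoter with TRIP13, a gene on the opposite strand whose start is 83 bp away, so the peaks cannot be assigned to either gene. BICRA had a WDR5 DMSO peak of 11 fragments within 2 kb (−log10 q 2.22). BICRAL had a WDR5 MS67 peak of 9 fragments (4.12 to 17.1, −log10 q 3.68) 1575 bp downstream of its start and no WDR5 DMSO peak nearer than 56570 bp to it, and it was the only member with a WDR5 peak within 2 kb with MS67 alone.

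Of the 31 members, 7 are variants known to be restricted to certain tissues, namely ACTL6B, DPF1, DPF3, SS18L1, SMARCD3, BCL11A, and BCL11B. With DMSO, 7 of 7 had a WDR5 peak within 2 kb of a TSS and 5 of 7 had a WDR5 promoter peak, against 62.7% and 43% of all genes. With MS67, 3 and 1 of them did, against 41.8% and 27.7%. SS18-SSX DMSO had a promoter peak at 1 of them, ACTL6B, against 13.4%. The subunit genes of the other remodeler families, 52 genes of the ISWI, CHD and NuRD, and INO80, SRCAP, and EP400 complexes, had SS18-SSX DMSO promoter peaks at 10 (19.2%) and WDR5 DMSO promoter peaks at 30 (57.7%). With MS67, the counts were 1 (1.92%) and 20 (38.5%). Within 2 kb, WDR5 had a peak at 44 of them with DMSO (84.6%) and at 29 with MS67 (55.8%), against 62.7% and 41.8% of all genes. For the SWI/SNF genes these shares were 87.1% and 48.4%.

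**Figure D2:**
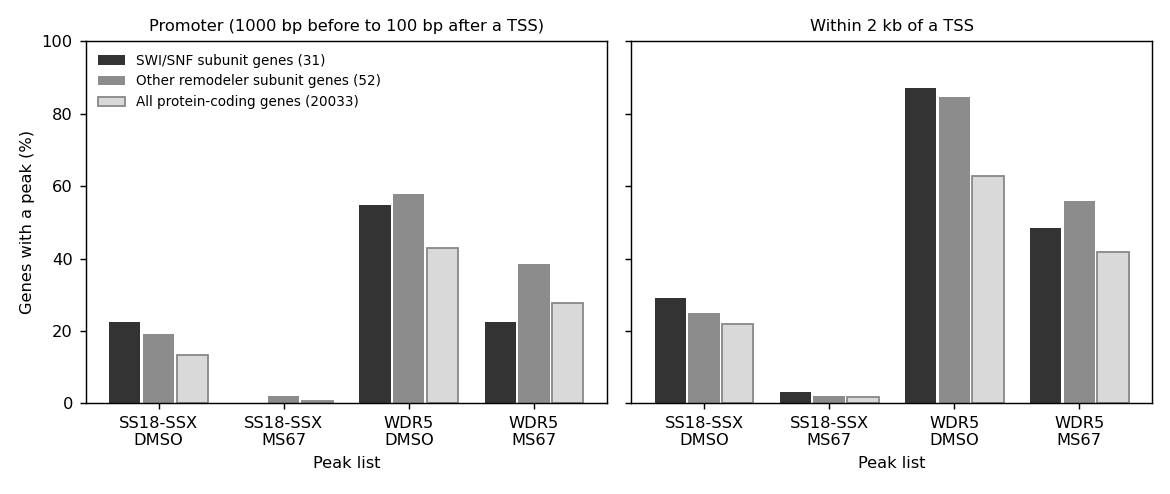
Share of genes with a peak (%) at a promoter (left) or within 2 kb of a TSS (right) in each peak list, for the 31 SWI/SNF subunit genes, 52 subunit genes of other remodelers, and all 20033 protein-coding genes. The bars of the SWI/SNF genes are above those of all genes in the DMSO lists and, at promoters, below them in the MS67 lists (22.6% against 27.7% for WDR5).

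Promoter peaks of both targets with DMSO were at 6 members, all of the 7 with an SS18-SSX promoter peak but SMARCA4, against 9.34% of all genes. Among all genes with an SS18-SSX promoter peak, 69.7% also had a WDR5 promoter peak. A shared gene did not mean a shared site. Of the 9 SS18-SSX DMSO peaks at member promoters, 2 overlapped a WDR5 DMSO peak, at ACTB and BCL7B, against 48.8% of all SS18-SSX promoter peaks. Within 1 kb of a WDR5 DMSO peak were 5 of the 9, against 76.6%. In strength, the SS18-SSX calls were near those of all promoters. Their −log10 q had a median of 3.02 (2.12 to 6.02) over the 9 peaks, against 3.34 for all 2925 SS18-SSX DMSO promoter peaks. Their summits had a median of 9 fragments (6 to 15) against 11. The median fold was slightly higher at the members, 4.45 against 4.35. The 26 WDR5 DMSO peaks at member promoters had a median −log10 q of 4.99 (1.72 to 13.8), against 4.88 for all 10162.

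The peaks of the members lay beside the canonical TSS rather than over it. No peak of any list covered the canonical TSS of a member, whereas the WDR5 DMSO list had a peak over the canonical TSS of 15.4% of all protein-coding genes. Within 2 kb of the canonical TSS on either side, 25 members had a WDR5 DMSO peak, and 0 of these 25 had a peak over it, against 26.7% of all genes with such a peak. On both sides at once, WDR5 DMSO had peaks at 9 members, BCL7A, BCL7B, BRD9, DPF3, SMARCB1, SMARCD1, SMARCD3, SS18, and SS18L1 (29.0%), against 16.4% of all genes. Upstream within 2 kb there were 19 members (61.3%, against 32.5% of all genes) and downstream 15 (48.4%, against 41.6%). This measure was chosen after the positions were seen, and it covers the canonical start only. Some member peaks spanned other annotated starts, among them the 240 bp SS18-SSX DMSO peak of ACTB, centred 7 bp from such a start.

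**Figure D3:**
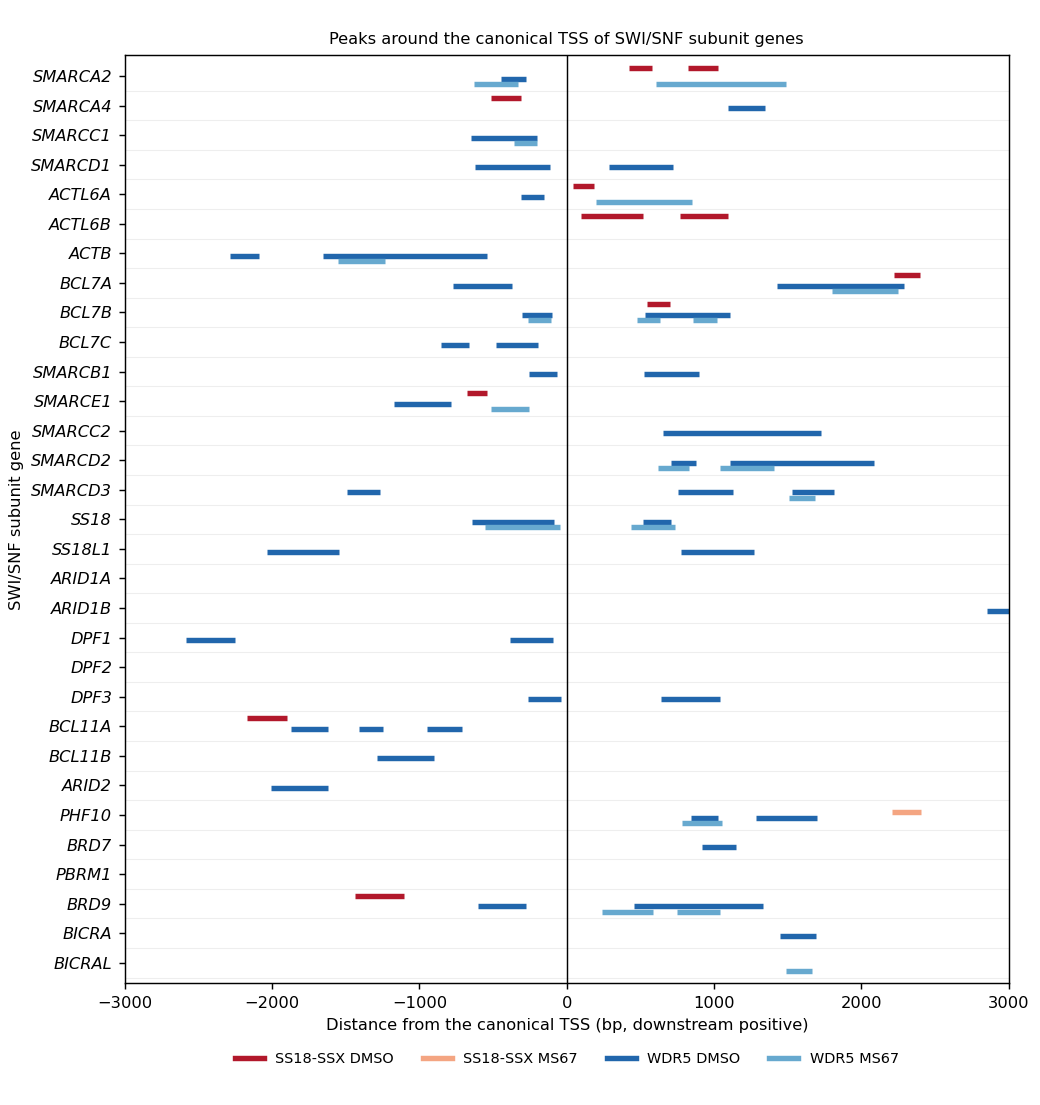
Peaks of the 4 lists within 3000 bp of the canonical TSS of each member (x axis in bp, downstream positive; 1 row per gene). Each bar spans a peak from start to end, coloured by list, and no bar crosses the line at 0.

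With MS67, the SS18-SSX promoter peaks of 7 of 7 members were no longer called, against 95.9% of all genes with such a peak with DMSO. The SS18-SSX MS67 list held fewer peaks (1175, against 15141 with DMSO), although its coverage was higher, at 0.737 fragments per bp across the genome against 0.541. No SS18-SSX MS67 peak lay within 1 kb of any of the 9 peaks, against 6.67% of all. The SS18-SSX MS67 peak nearest to any of them was 121049 bp from the BCL7B peak.

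For WDR5, 10 of the 17 members with a promoter peak with DMSO had none with MS67, SMARCD1, ACTL6A, ACTL6B, ACTB, BCL7A, BCL7C, SMARCB1, DPF1, DPF3, and BCL11A. This is 58.8%, against 50.1% of all genes with such a peak. SMARCA2, SMARCC1, BCL7B, SMARCE1, SMARCD3, SS18, and BRD9 had WDR5 promoter peaks with both treatments. No member had a promoter peak with MS67 alone, against 6.24% of all genes. Within 2 kb, 13 of 27 members had no peak with MS67, against 38.7% of all genes.

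Coverage differed in the other direction here. The WDR5 MS67 library had 0.168 fragments per bp against 0.368 with DMSO, a ratio of 0.458, and at that coverage 15 of the 26 WDR5 DMSO peaks at member promoters passed the smallest −log10 p of the MS67 list (57.7%, against 66.4% of all). Of the 15, 8 overlapped a WDR5 MS67 peak (53.3%, against 43.2%) and 7 did not. The 7 were at SMARCD1, BCL7C, SMARCB1, SMARCE1, DPF1, DPF3, and BCL11A, and all but the SMARCE1 peak had no WDR5 MS67 peak within 1 kb. Of the 11 peaks that did not pass, 8 did not overlap a WDR5 MS67 peak, among them those of ACTL6A, ACTL6B, and BCL7A, and 3, at SMARCC1, SMARCD3, and SS18, did. Failing the scaled threshold thus does not show that a site could not be called at the lower coverage. ACTB was counted as lost although its DMSO peak overlapped an MS67 peak, because the centre of the latter lay outside the promoter window. ACTL6B was counted as lost with an MS67 peak 50 bp from its DMSO peak. When any overlap of a peak and the window counted, 9 members had a WDR5 MS67 promoter peak, ACTB and ACTL6B among them, against 32.9% of all genes.

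Where WDR5 was called at the same site with both treatments, its strength was compared relative to the library. There were 24 overlapping pairs of WDR5 peaks, at 12 members. For each peak, the summit fragments were divided by the genome-wide coverage of its library. At the upstream SMARCA2 site, this enrichment was 59.9-fold (37.5 to 90.6) with DMSO and 125-fold (77.2 to 191) with MS67. At the main SS18 site it was 59.9-fold (37.5 to 90.6) and 71.2-fold (36.8 to 124), and at the alternative ACTB start 95.2-fold (66.3 to 132) and 65.3-fold (32.6 to 117). The enrichment was higher with MS67 in 20 of 24 pairs, and the intervals overlapped in all 24. Some of the pairs share a DMSO peak. No share over all overlapping pairs of the lists was computed, so this count is no result about the members. The enrichment is not scaled by the spike-in. With that scaling, the study reported lower WDR5 binding with MS67. Overlap of intervals is not a test of the difference, which was not made for any pair. A peak in a library of lower coverage must reach a higher enrichment to be called.

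**Figure D4:**
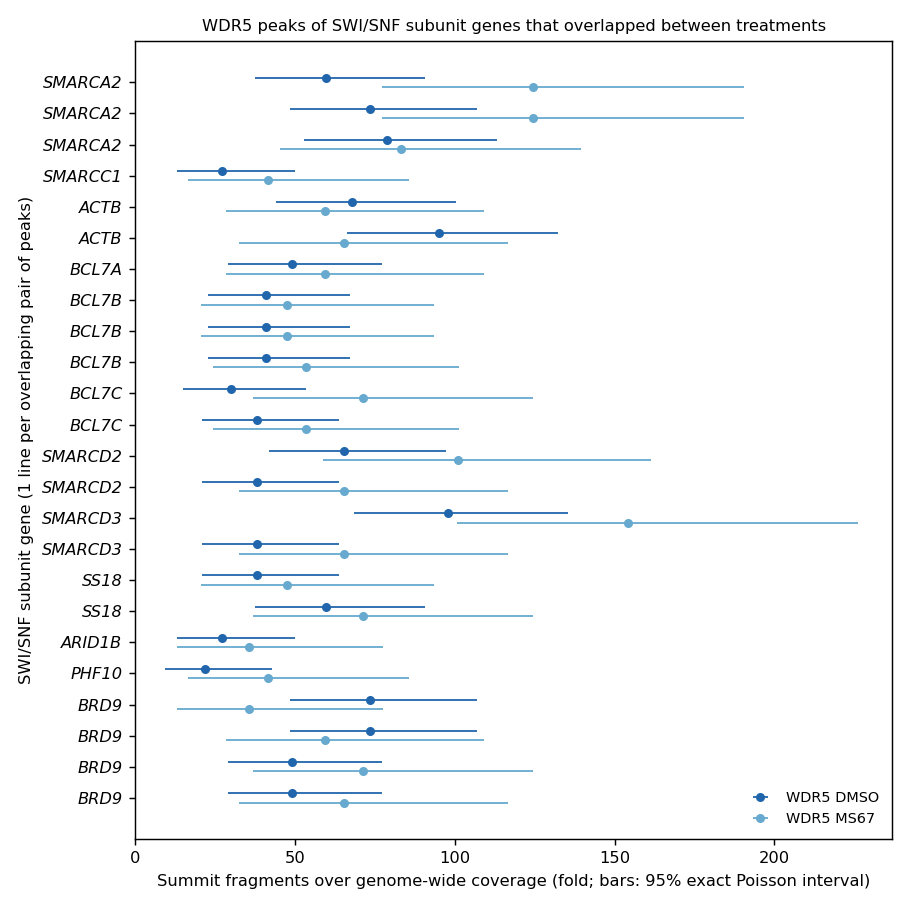
Summit fragments over the genome-wide coverage of the library (fold, x axis) for the 24 overlapping pairs of WDR5 DMSO and WDR5 MS67 peaks at 12 members, with exact Poisson 95% intervals as bars. A DMSO peak that overlapped 2 MS67 peaks is drawn with each, and the intervals of every pair overlap.

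More than 2 kb from every annotated start of the same gene, the member gene bodies held 8 SS18-SSX peaks with DMSO and 1 with MS67. For WDR5 they held 28 and 9. Starts of other genes were not considered here, so such a peak may lie at the promoter of another gene. The whole lists held 15141 and 1175 SS18-SSX peaks, and 35605 and 14123 WDR5 peaks. No share over all gene bodies was computed, so these counts are no result about the members. The SS18-SSX DMSO peaks were at ACTB, BCL7A, BCL11B, and BRD9. In BCL11B, 3 SS18-SSX peaks of 11, 18, and 20 fragments lay 16.1 to 24.5 kb into the gene, with WDR5 DMSO peaks 627 to 1216 bp from them, and no peak of either target was called with MS67. In BRD9, the WDR5 DMSO peak of 27 fragments (17.8 to 39.3) at chr5:850715-851890 had the highest −log10 q of all member peaks, 15.4. This peak lay 41.5 kb from the canonical start, with its summit outside the BRD9 exons. It overlapped 2 WDR5 MS67 peaks and the SS18-SSX MS67 peak at chr5:851698-851925, of 19 fragments (11.4 to 29.7) and a −log10 q of 3.12. The SS18-SSX DMSO peaks in the body of BRD9 were 3 and began 761 bp from the MS67 peak, the highest with 23 fragments (14.6 to 34.5). ARID1B, the longest member, held 7 WDR5 DMSO peaks in its body and 3 with MS67, of which 1 overlapped.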

How the data were processed

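CUT&RUN of SS18-SSX and WDR5 was analysed in HSSY II cells treated for 4 days with DMSO or 2.5 µM MS67, as 4 peak lists of 1 library each. Per the methods of the study, the authors aligned the reads to hg38 and to mm10 (spike-in) with Bowtie2, removed duplicates with Picard, and called peaks with MACS2. The submitters' processing notes name SAMtools 1.9, bedtools 2.28.0, and deepTools 3.3.0. MACS2 options and a control library are not given in the sources used here. The lists that the authors deposited give the position of every peak, a score, a fold enrichment (a ratio to the local background), and the −log10 p and −log10 q. The score was not used.

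The fold and −log10 p of each peak together fix its summit pileup and background. Whole-number pileups matched 100% of the peaks within 0.001 in −log10 p, and the step was tested on simulated data. Genome-wide coverage was read from the lowest background in each list. Median summits were 16 and 30 fragments for SS18-SSX with DMSO and MS67, and 13 and 8 for WDR5. Peaks were assigned to genes by all annotated starts of GENCODE 44, and counts of members are given beside the same share of 20033 protein-coding genes. With 1 library per condition and target, no test between treatments was made. DMSO summits and backgrounds were scaled by the coverage ratio, without random draws, and compared with the smallest −log10 p of the MS67 list. For SS18-SSX this scales upward, which lets nearly every called peak pass, so it is reported for WDR5 only. Promoter sequences were those of RefSeq (GRCh38.p14), and peak sequences were read from hg38.

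The members and gene lists were chosen with earlier results of these data known. All 31 members were to be named, a neighbouring gene only where its start lay within 1000 bp of a member's and the peak was shared, and promoter sequences were to be printed for at most 8 members, first those with the highest −log10 q in a list and then those bound by SS18-SSX. Of the promoters that this rule covers, those that touch exons or are not in the RefSeq table are not printed, and peaks were printed in addition. The BCL7B promoter touches no exon and is not printed either. A WDR5 DMSO peak that overlaps it is printed instead. That promoter held 3 GC boxes and 1 E-box. Alternatives were stricter peaks, other placements of a peak, canonical starts, DMSO lists cut to as many peaks as with MS67, another distance from starts, and another −log10 p threshold. Spike-in–scaled signals, CUT&Tag, SMARCC1, and SYO-1 data were not analysed here. Scripts ran in Python 3.11.15 with pandas 2.3.3, scipy 1.17.1, numpy 2.4.6, and matplotlib 3.10.9.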

Additional observations from a re-analysis of the deposited data

How the results depend on the processing

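Of 86 values recomputed for 18 results under 8 alternatives, 50 stayed within 1.5 times the count reported and 36 did not, and the cause was not tested beyond how each alternative is built. No paired analysis was possible because each condition has 1 library. With stricter peaks (−log10 q above 3, and a fold above 3 for SS18-SSX or above 6 for WDR5), members with a promoter peak numbered 4 (SS18-SSX DMSO, against 7.77% of all genes), 4 (WDR5 DMSO, 11.7%), and 3 (WDR5 MS67, 7.39%), so that the 4 of 31 for WDR5 DMSO were near the share of all genes. There was 1 member for both targets, 4 without a WDR5 and 4 without an SS18-SSX promoter peak with MS67, and 3 with a WDR5 promoter peak with MS67 alone. Within 2 kb the counts were then 0 (SS18-SSX MS67, 0.809% of all genes), 7 (WDR5 DMSO, 19.8%), and 5 (WDR5 MS67, 11.6%). Away from starts there were 2 WDR5 DMSO peaks and 1 WDR5 MS67 peak. With a −log10 q above 5, promoter counts were 1 (SS18-SSX DMSO, ACTL6B, against 3.03% of all genes), 11 (WDR5 DMSO, 23.6%), and 3 (WDR5 MS67, 6.74%). Further counts were 0 (both targets, 1.41%), 1 (SS18-SSX with DMSO alone, 2.93%), and 1 (WDR5 with MS67 alone, 2.69%). Counts within 2 kb were 2 (SS18-SSX DMSO, 5.84% of all genes), 0 (SS18-SSX MS67, 0.309%), and 5 (WDR5 MS67, 10.5%). Peaks away from starts were 1 and 0 for SS18-SSX and 13 and 0 for WDR5 with DMSO and MS67. With canonical starts only, SS18-SSX DMSO had 2 promoter counts (8.84% of all genes), both targets 1 (4.81%), and SS18-SSX with DMSO alone 2 (8.61%). SS18-SSX MS67 then had 0 within 2 kb (1.34%). The DMSO lists were also reduced to their highest peaks, as many as in the MS67 lists. SS18-SSX DMSO then had 0 promoters and 0 members within 2 kb (1.57% of all genes). There were 0 members of both targets (0.300%) and 0 with SS18-SSX with DMSO alone (0.479%). WDR5 DMSO had 11 promoters (23.3% of all genes), 6 of them without one with MS67 (9.69% of all genes). With MS67 alone, 2 members had a WDR5 promoter peak, against 14.1% of all genes. The reduced SS18-SSX list had promoter peaks at 0.654% of all genes. Member promoter peaks rested on 6 to 36 fragments, which limits what a single peak can show.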

Other observations

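Among the other remodeler families, the lists fell out as follows. Over all protein-coding genes, the promoter shares were 13.4% and 0.719% for SS18-SSX with DMSO and MS67. For WDR5 they were 43% and 27.7%. The SS18-SSX DMSO shares were 15.4% of the ISWI, 27.8% of the CHD and NuRD, and 14.3% of the INO80, SRCAP, and EP400 genes. The first and last are near the share of all genes. Of 13 ISWI subunit genes, 2 had SS18-SSX DMSO promoter peaks, BAZ1B, a subunit of the WICH complex, and CECR2, a subunit of CERF. WDR5 had promoter peaks at 8 of them with DMSO and at 3 with MS67, among them SMARCA5, the ISWI ATPase SNF2H. Of 18 CHD and NuRD genes, 5 had SS18-SSX DMSO promoter peaks, CHD4, the ATPase of NuRD, with CHD7, MTA1, MTA3, and GATAD2A. CHD7 was the only gene of the 52 with an SS18-SSX promoter peak with MS67. WDR5 had promoter peaks at 10 of the 18 with DMSO and at 6 with MS67. Of 21 INO80, SRCAP, and EP400 genes, 3 had SS18-SSX DMSO promoter peaks, the ATPase gene SRCAP and the helicase genes RUVBL1 and RUVBL2. WDR5 had promoter peaks at 12 of the 21 with DMSO and at 11 with MS67, 8 of them with both. Across the 52 genes, 16 had a WDR5 promoter peak with both treatments. These counts were not tested against each other or against the SWI/SNF genes.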
